A study of Homo sapiens with 3 samples.

Results

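The regions described here are the pericentromeric flanks of 11 human chromosomes, 2, 3, 4, 5, 6, 8, 10, 11, 12, 17 and 18. Each flank is the 3 Mb of T2T-CHM13 sequence next to the active centromeric array on the short (p) or the long (q) arm, so that there are 22 flanks, and a flank is named below by its chromosome and arm. Members are the H3K27me3 peaks that overlap a flank by at least 1 bp. Of 286886 peaks in the 2 deposited lists, 10563 were members, 6905 of 181157 in the control list and 3658 of 105729 in the siORCA list. The set had been proposed for metacentric chromosomes, but most of the 11 are classed as submetacentric in cytogenetics, so the chromosomes are called by number here.

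The study profiled H3K27me3 by chromatin immunoprecipitation and sequencing in U2OS, an established human osteosarcoma cell line. Cells had been transfected with Gl3, the control, or with siORCA, directed at ORCA. Each condition had 1 ChIP library with 1 list of broad peaks, all from the same batch per the labels, and the third sample, an input labelled with no treatment, was not analysed here. No condition was replicated, so no p-value was computed and every difference below is a difference between 2 libraries. These files hold no level of ORCA, and the knockdown was not checked.

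H3K27me3 is the histone mark written by Polycomb repressive complex PRC2 and is best known from silent developmental genes on chromosome arms. Human centromeres are built on long arrays of alpha satellite, and the sequence beside them holds older alpha satellite, other satellite families and segmental duplications, with few genes. That sequence is usually packed as constitutive heterochromatin under another mark, H3K9me3. ORCA, also called LRWD1, binds the origin recognition complex and is known to associate with heterochromatin. Because repeats of this kind resemble each other, the treatment of reads that align to several places can set how much signal a flank receives, and the sources used here do not state it.

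Summed over the 22 flanks, peaks covered a larger part of the flanks than of the rest of the genome in both lists. They covered less of the flanks in siORCA than in the control. In the control, 11.9 of 66 Mb was covered (18.1%), against 6.13% of the sequence outside flanks and arrays. In siORCA, 3.98 Mb was covered (6.03%), against 2.47% outside. Taken singly, 20 of the 22 flanks lay above the outside value of the same list in the control, and 11 in siORCA. The ratio of siORCA to control was 0.334 in the flanks, 0.224 in the rest of the same 11 chromosomes and 0.403 in the rest of the series. The 11 arrays between the flanks, 36.8 Mb in all, went the other way, with 38.0% under control peaks and 42.8% under siORCA peaks, a ratio of 1.13. Relative to their length, the flanks held 2.67 times their share of all control peak length and 1.99 times their share of all siORCA peak length. For the arrays these values were 5.61 and 14.1.

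Covered length was lower in siORCA in all 22 flanks, and the size of the gap varied widely. The ratio ran from 0.0472 in flank 11p to 0.977 in flank 2p, with a median of 0.239. In 19 flanks siORCA covered at most 0.5 of the control length, and 84.1% of 962 other 3 Mb windows passed the same limit, so this count lies near the background. No flank reached 2 times the control length, a limit passed by 0.52% of the other windows. In 8 flanks siORCA covered at most 0.1 of the control length, where 12.6% of the other windows did. Among windows covered over at least 10% in the control, 6 of 16 flanks were at or under 0.1, against 11.6% of 112 other windows, and 13 of 16 were at or under 0.5, against 65.2%. The direction depends on the fold limit: when peaks with a fold under 3 were left out, 16 of 22 flanks were lower and flanks 2p, 3p, 3q, 17p, 18p and 18q were higher in siORCA. The median ratio was then 0.455 and only 2 flanks were at or under 0.1. With a −log10 q of at least 2 the median ratio was 0.151, and 8 flanks were at or under 0.1. The other 3 Mb windows were not counted again under either limit, so these counts have no background.

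**Figure D1:**
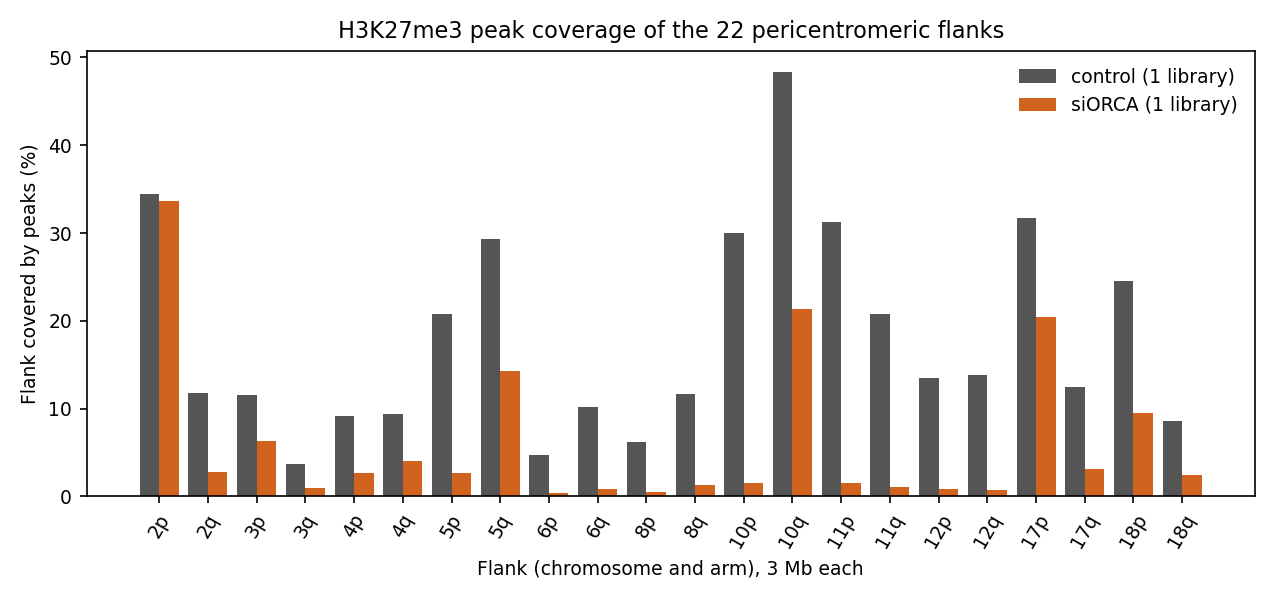
Percent of each 3 Mb flank covered by peaks in the control list (grey bars) and the siORCA list (orange bars), 1 library each. Flanks 2p, 10p, 11p and 17p stand between 30.01 and 34.5% in the control, and at 33.7, 1.53, 1.47 and 20.4% in siORCA.

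**Figure D2:**
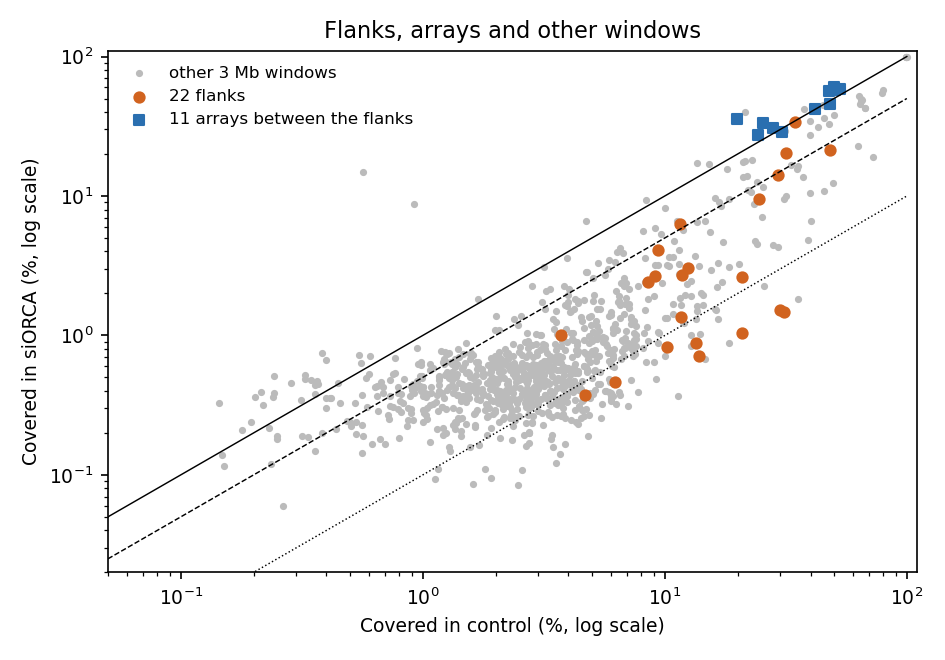
Percent covered in siORCA against percent covered in the control, both on log scales, for the 22 flanks (orange), the 11 arrays between them (blue squares) and 962 other 3 Mb windows (grey). The solid line marks equal coverage, the dashed line a ratio of 0.5 and the dotted line a ratio of 0.1; 8 flanks lie on or under the dotted line, and the arrays lie about the solid line.

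Flanks with like coverage in the control could differ widely in siORCA. Flank 2p (chromosome 2, 89.3 to 92.3 Mb) held 1034 kb of control and 1010 kb of siORCA coverage. Flank 17p (20.9 to 23.9 Mb) held 949.9 kb and 612.3 kb. Both were thus among the best covered flanks of either list. Flank 11p (48 to 51 Mb), with 936.1 kb in the control, had 44.1 kb in siORCA. Flank 10p (36.6 to 39.6 Mb), with 900.3 kb in the control, had 46.0 kb in siORCA. The highest of these 4 lengths was 1.15 times the lowest in the control and 22.9 times the lowest in siORCA. Across all 22 flanks coverage ranged from 3.71 to 48.3% in the control, a 13.0-fold spread, and from 0.372 to 33.7% in siORCA, a 90.4-fold spread. The 4 best covered flanks of each list held 36.6% of the flank length in the control and 67.6% in siORCA, where they were 2p, 10q, 17p and 5q.

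The lowest ratios lay on chromosomes 11, 12 and 10. Flank 11p had a ratio of 0.0472 and flank 11q (54.5 to 57.5 Mb) one of 0.0499, with 624.4 kb in the control and 31.1 kb in siORCA. Flank 10p had a ratio of 0.0511. Flank 12q (37.2 to 40.2 Mb) had 415.2 kb and 21.3 kb, a ratio of 0.0513, and flank 12p (31.6 to 34.6 Mb) had 405.1 kb and 26.4 kb, a ratio of 0.0652. Next came chromosomes 8 and 6, which were thinly covered in the control as well. Flank 8p (41.2 to 44.2 Mb) had 186.6 kb and 14.0 kb, flank 6p (55.3 to 58.3 Mb) 140.8 kb and 11.2 kb, and flank 6q (61.1 to 64.1 Mb) 307.0 kb and 24.7 kb. Their ratios were 0.0749, 0.0793 and 0.0806, and came to 0.321, 0.434 and 0.4999 without peaks of a fold under 3. Flank 8q (46.3 to 49.3 Mb) followed with 350.6 kb, 40.4 kb and a ratio of 0.115. When peaks with a fold under 3 were left out, the ratios of flanks 10p, 11p, 11q, 12p and 12q stayed between 0.0595 and 0.122, the lowest of all 22 flanks.

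The other flanks held more of the control length in siORCA. On chromosome 5, flank 5p (44 to 47 Mb) had 623.5 kb and 79.2 kb, a ratio of 0.127, and flank 5q (49.6 to 52.6 Mb) had 879.5 kb and 427.8 kb, a ratio of 0.486. Flank 2q (94.7 to 97.7 Mb) had 353.1 kb and 81.7 kb, and flank 17q (27.5 to 30.5 Mb) 373.1 kb and 92.1 kb, with ratios of 0.231 and 0.247. On chromosome 3, flank 3q (96.4 to 99.4 Mb) was the least covered flank of the control, with 111.3 kb and 30.3 kb, while flank 3p (88.7 to 91.7 Mb) had 346.7 kb and 188.2 kb, a ratio of 0.543. On chromosome 18, flank 18q (20.9 to 23.9 Mb) had 256.3 kb and 72.7 kb, and flank 18p (13 to 16 Mb) 736.7 kb and 284.9 kb, a ratio of 0.387. On chromosome 4, flank 4p (46.7 to 49.7 Mb) had 273.4 kb and 80.3 kb, and flank 4q (55.2 to 58.2 Mb) 280.9 kb and 122.0 kb, with ratios of 0.294 and 0.434. Flank 10q (41.7 to 44.7 Mb) was the best covered flank of the control, with 1450 kb, and had 639.8 kb in siORCA, a ratio of 0.441.

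The 2 arms of a chromosome did not share a ratio as a rule. The ratios of the p and q flank lay within 1.5 times of each other on 5 of 11 chromosomes, which were 6, 11, 12, 18 and 4 by the closeness of their ratios. They were furthest apart on chromosome 10, 0.0511 on the short arm and 0.441 on the long arm, and on chromosome 2, 0.977 and 0.231. The p flank had the higher ratio on 5 chromosomes and the q flank on 6. Summed over chromosomes, the p flanks held 6.53 Mb of control and 2.40 Mb of siORCA coverage, and the q flanks 5.40 Mb and 1.58 Mb.

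Coverage changed at the edge of the array in siORCA more than in the control. In the last 0.5 Mb inside the arrays, the mean coverage over the 22 edges was 47.7% ± 16.2 (SD over the 22 edges) in the control and 48.6% ± 14.9 in siORCA. In the adjoining 0.5 Mb of the flanks it was 40.5% ± 24.9 and 12.6% ± 16.0. Coverage was lower on the flank side than on the array side of all 22 edges in siORCA and of 14 edges in the control. Flank 11q shows the contrast: control peaks took up 51.1% and siORCA peaks 48.0% of the array side, and 82.2% and 1.77% of the flank side. At the edge of flank 10p the array side had 44.9% and 43.0%, and the flank side 65.8% and 1.37%. Positions within 1 chromosome share a library and neighbouring sequence, and the edges are therefore not independent points.

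Further out, coverage declined with distance in the control, and did so after an early drop in siORCA. From the array outwards, the mean coverage of the 6 bins of 0.5 Mb in the control was 40.5, 24.7, 16.98, 12.2, 7.82 and 6.31%. In siORCA it was 12.6, 7.64, 8.76, 3.74, 1.90 and 1.501%. The third siORCA bin stands above the second, and flanks 2p, 10q and 5q held 87.0% of its length. The median over flanks, which such flanks do not carry, went from 9.19% in the bin nearest the array to 1.32% in the second bin and 0.368% in the last one in siORCA. Just beyond the flanks, 3 to 3.5 Mb from the array, coverage came to 4.70% for control and 0.641% for siORCA peaks, with a ratio of 0.136. The nearest 1 Mb held 60.1% of the flank length covered in the control and 56.0% of that covered in siORCA.

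**Figure D3:**
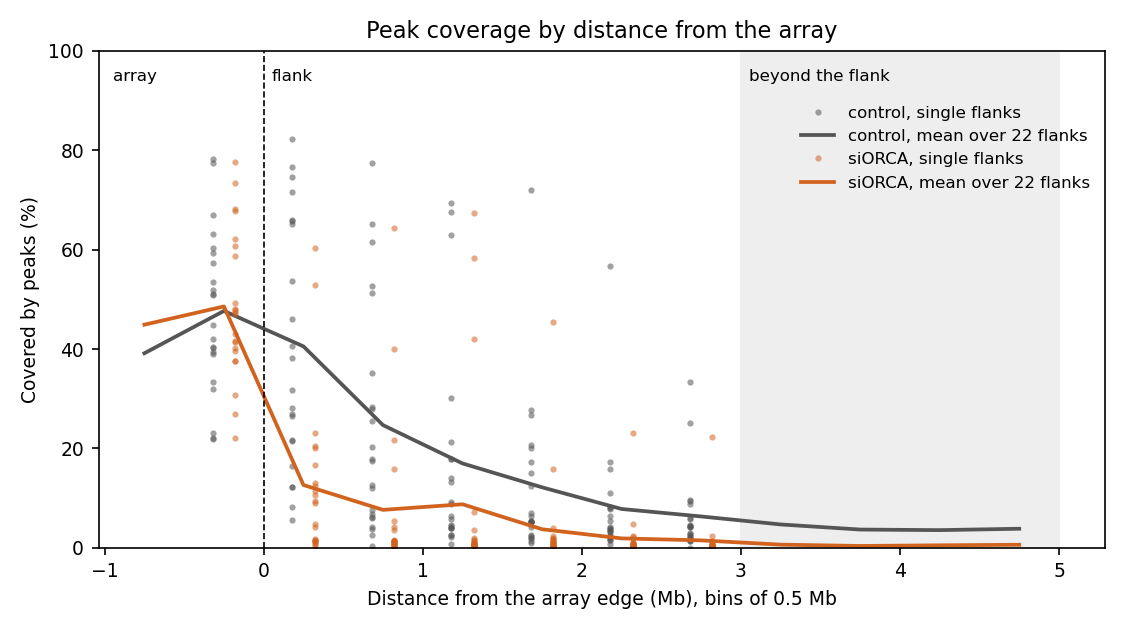
Percent covered by peaks in bins of 0.5 Mb by distance from the array edge (dashed line at 0, array to the left), with single flanks as points up to 3 Mb and the mean over the 22 flanks as lines. The 2 lines meet inside the array, at 47.7 and 48.6%, and part in the nearest flank bin, at 40.5 and 12.6%.

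In the 0.5 Mb nearest the array, blocks of like fold in the control were covered to different extents in siORCA. In 8 flanks, 5q, 10p, 10q, 11p, 11q, 12p, 17p and 18p, the control covered at least 50% of this bin. In siORCA, 4 of them (10p, 11p, 11q and 12p) were covered under 2%, and 2 (17p and 18p) over 50%. Flanks 5q and 10q lay between, with 20.5 and 23.1% covered in siORCA and length-weighted mean control folds of 3.44 and 3.02. The 6 bins compared next were thus picked by their siORCA coverage. The bin of flank 17p had 382.6 kb in the control, in peaks with a length-weighted mean fold of 2.94 in the authors' values, and 301.9 kb in siORCA. In flank 18p it had 373.0 kb at a mean fold of 2.95 in the control and 264.4 kb in siORCA. The corresponding bin of flank 11p had 357.9 kb at a mean fold of 2.93 in the control and 6.79 kb in siORCA, and that of flank 11q 411.1 kb at 3.03 and 8.87 kb. For flanks 10p and 12p the control folds were 2.87 and 2.97, with 329.1 and 268.6 kb covered in the control and 6.87 and 7.73 kb in siORCA. Mean control folds in these 6 bins thus lay between 2.87 and 3.03, while siORCA peaks covered 66.9% of the control length in 17p and 70.4% in 18p, and from 1.71 to 2.11% of it in the other four. The highest single control fold in the bin was 3.64 in 17p and 4.62 in 18p, and from 3.16 to 3.42 in the other four.

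**Figure D4:**
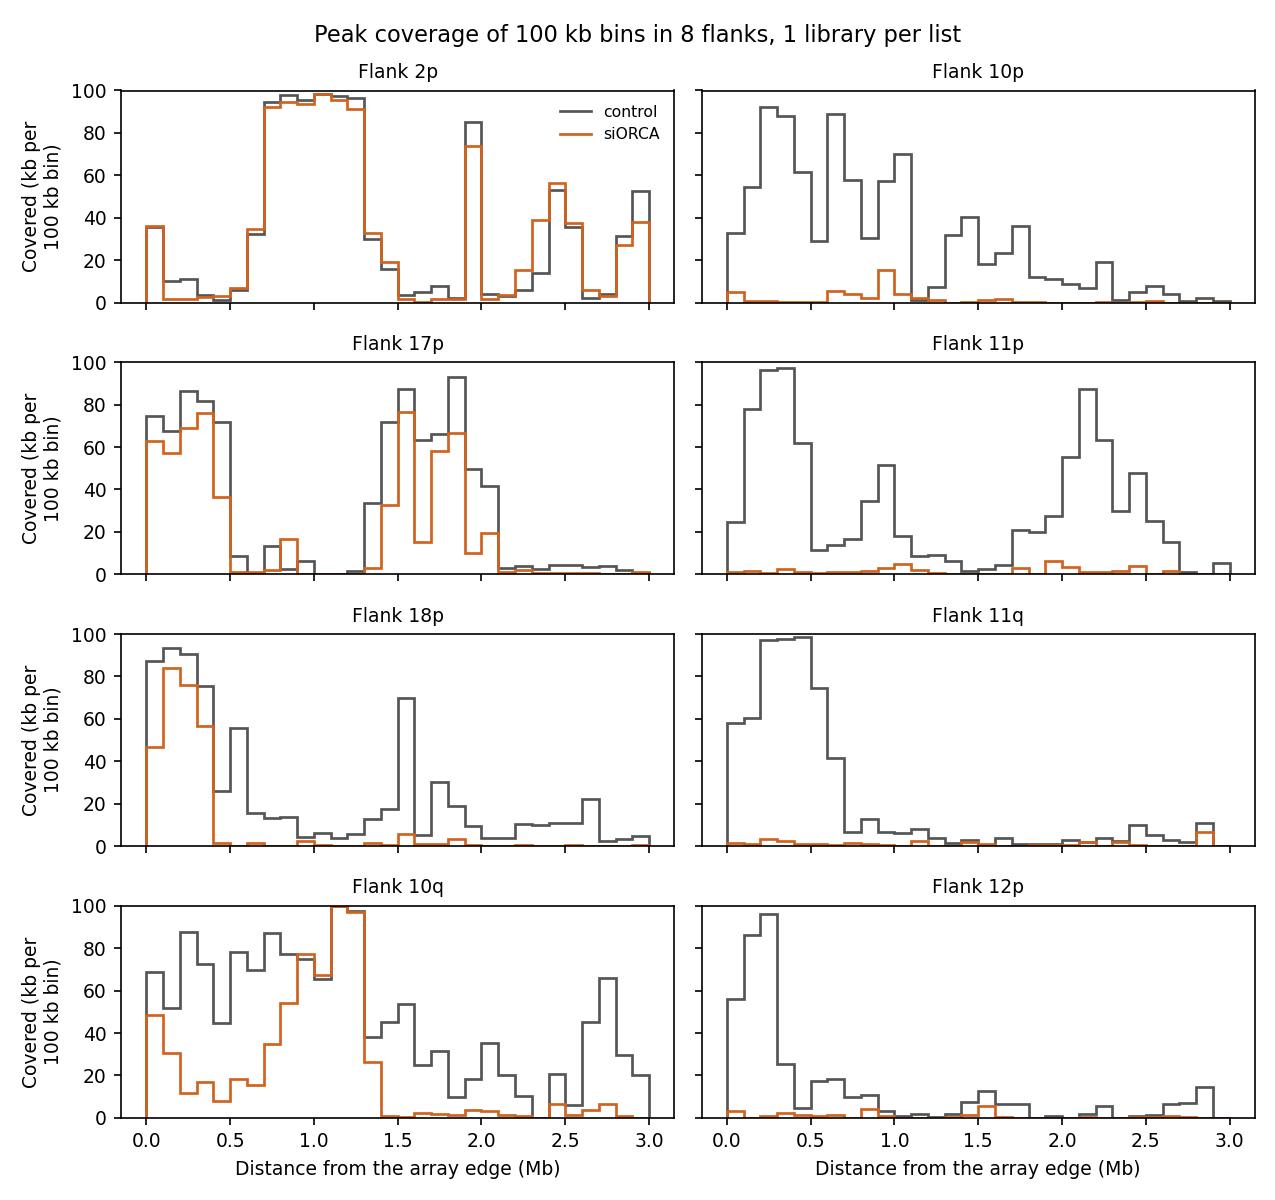
Covered length per 100 kb bin by distance from the array edge in 8 flanks, control in grey and siORCA in orange, 1 library each. In flanks 2p, 17p, 18p and 10q blocks of control coverage recur in siORCA at least in part, and in flanks 10p, 11p, 11q and 12p siORCA stays under 20 kb in every bin.

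Single blocks show the same contrast. Stretches are runs of peaks in a flank with gaps of up to 3 kb between neighbours. The length of a stretch includes these gaps. The longest control stretch lay in flank 2p, chr2:90979498-91621593, 642.1 kb long with 50 peaks and a highest fold of 8.44, and siORCA peaks covered 92.9% of it. The longest siORCA stretch was its counterpart, chr2:90961416-91626564, with 86 peaks and a highest fold of 10.1. The second longest control stretch lay in flank 11q, chr11:54617271-55164457, 547.2 kb long. Its 109 peaks covered 460.7 kb with a highest fold of 3.30, and siORCA peaks covered 1.62% of it.

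The next 3 control stretches were also found among the 5 longest of siORCA. In flank 17p the control stretch chr17:23410744-23900000, which ends at the array edge, was 489.3 kb long with 164 peaks, and siORCA peaks covered 61.6% of it. In flank 10q, chr10:42533839-43002878 was 469.0 kb long with 115 peaks, and siORCA peaks covered 81.7%. In flank 18p, chr18:15617901-16000000, again at the array edge, was 382.1 kb long with 58 peaks, and siORCA peaks covered 68.8%. The fifth longest siORCA stretch lay in flank 5q, chr5:50677754-50961516, 283.8 kb long with 108 peaks, and control peaks covered 78.7% of it.

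Of stretches of at least 20 kb, the control had 116 (10.6 Mb with their gaps) in all 22 flanks, and siORCA had 47 (4.29 Mb with their gaps) in 13 flanks. Under 5% of the stretch was covered by the other list in 52 of the 116 control stretches and in 2 of the 47 siORCA stretches. Stretches were formed in the flanks only, so the counts of stretches have no background from the rest of the series. Which stretches held no base under the other list depended on the gap. With gaps of up to 3 kb there were 10 such control stretches of at least 20 kb, with gaps of up to 1 kb 8 and with gaps of up to 10 kb 39. The longest was 70.6 kb in flank 12p with the 1 kb gap and 97.8 kb in flank 10p with the 10 kb gap. With the 3 kb gap the longest were 40.5 kb in flank 5p (chr5:46592561-46633089, 21 peaks), 38.4 kb in flank 10p (chr10:38259621-38298067, 18 peaks) and 31.8 kb in flank 12q (chr12:37966016-37997816, 19 peaks). They were followed by 31.0 kb in flank 8q (chr8:46871602-46902644, 16 peaks) and 29.2 kb in flank 2q (chr2:95634733-95663921, 10 peaks). In these 5 control stretches the peaks themselves covered from 35.2 to 75.6% of the length, with highest folds between 2.92 and 3.74. In siORCA, again with the 3 kb gap, the 2 longest were in flank 17p, 31.8 kb at chr17:23037367-23069146 with 17 peaks and 22.4 kb at chr17:23072487-23094877 with 12 peaks. The peaks themselves covered 28.1 and 32.9% of these 2 lengths. The other 3 of the 5 longest lay in flank 2p and were from 4.89 to 6.54 kb long. The longest was 4.02 kb in flank 2p with the 1 kb gap and 57.5 kb in flank 17p with the 10 kb gap.

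The 5 bins of 100 kb with the largest deficit in siORCA lay on chromosomes 11 and 12. In flank 11q, the bin from 54.9 to 55 Mb held 98.4 kb of control and 0.873 kb of siORCA coverage, and the bin from 54.8 to 54.9 Mb held 97.5 kb and 2.55 kb. In flank 11p, the bin from 50.7 to 50.8 Mb had 96.4 kb and 0.718 kb. Flank 12p had 96.2 kb and 1.06 kb from 34.3 to 34.4 Mb, and flank 12q 96.3 kb and 1.60 kb from 37.8 to 37.9 Mb. All 5 began within 0.6 Mb of the array. These bins were all but filled by control peaks and all but empty in siORCA.

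Of 660 bins of 100 kb in the flanks, 164 were covered over at least 20% in the control and 58 in siORCA. Of the 164, 57 also reached 20% in siORCA (34.8%) and 75 were under 5% there (45.7%). In the rest of the series, 40.8% of 1962 such bins reached 20% in siORCA and 32.7% were under 5%. Of the 58 flank bins at 20% in siORCA, 57 also were in the control (98.3%), near the 93.6% of such bins in the rest of the series. In flank 2p all 14 control bins of this kind were kept above 20% in siORCA, and in flank 17p 9 of 13. In flank 11p 14 of 15 were under 5%, in flank 10p 12 of 15, in flank 11q all 7, and in flanks 12p and 12q all 4 each. Flank 10q was mixed, with 9 of its 24 at 20% and 8 under 5%.

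The siORCA peaks in the flanks mostly lay where the control had peaks, and the reverse was less so. Of the siORCA flank length, 84.3% was also covered in the control, against 72.6% in the rest of the series. Of the control flank length, 28.1% was also covered in siORCA, against 29.2% in the rest. In the rest of the same chromosomes both shares were lower than in the flanks. There, 61.0% of the siORCA length and 13.7% of the control length was shared. Counted as peaks touched by the other list over 1 bp or more, the shares were 76.5% of 3658 siORCA peaks (Wilson interval at 95%, 75.1 to 77.9%) and 26.9% of 6905 control peaks (25.9 to 28.0%). These intervals cover counting error only, and neighbouring peaks are not independent. The part of siORCA length under control peaks was highest in flank 18p, 98.2%, and lowest in flank 8p, 25.8% of only 14.0 kb. The next lowest were flanks 3p (48.2%), 6q (50.6%), 5p (53.9%) and 3q (56.2%).

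Peaks in siORCA were shorter and had higher folds in every flank. The median width of the members was 571 bp for control peaks and 424 bp for siORCA peaks, and it was shorter in siORCA in all 22 flanks. The rest of the series showed the same order, with 510 and 390 bp. The median fold was 2.69 in the control and 3.30 in siORCA. It was higher in siORCA in all 22 flanks, where it ran from 3.09 to 3.45, against 2.46 to 2.94 in the control. In the whole lists, too, the median fold was higher in siORCA, 3.29 against 2.73. Folds of lists made from separate libraries were not compared peak by peak. More peaks were called in siORCA than in the control in flanks 2p (397 and 253) and 17p (503 and 362), although less length was covered in both. Peaks of 10 kb or longer held 38.1% of the length of all members in the control and 33.0% in siORCA, counted over whole peaks, against 20.2 and 25.1% in the rest of the series.

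Control peaks with higher folds shared more of their length. The 204 control peaks whose fold reached 4 covered 1.43 Mb, of which 90.3% was also covered in siORCA. The share was 26.5% for folds of 3 to 4 (4.28 Mb), 15.9% for 2.5 to 3 (5.45 Mb) and 8.70% under 2.5 (0.773 Mb). Weighted by length, the mean control fold was 4.22 over the shared and 2.95 over the unshared bases. Longer control peaks also shared more, 40.8% of length at 10 kb and above against 12.7% under 1 kb, and fold and width were not separated. The fold and width classes were formed for flank peaks only. Whether the same order holds in the rest of the series was not tested. By flank, the length-weighted control fold and the shared percent of control length had a Pearson r of 0.775 and a Spearman rho of 0.433 over 22 flanks. Without the 2 flanks farthest from the median fold, 2p and 2q, r was 0.647 and rho 0.353. The flanks share 2 libraries, and these correlations are descriptions only. At folds under 3, flanks 18p (2.82, 38.0% shared), 3p (2.69, 26.2%) and 18q (2.71, 24.6%) stand apart from flanks 11p (2.85, 3.56%), 11q (2.99, 2.99%) and 10p (2.96, 4.52%).

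**Figure D5:**
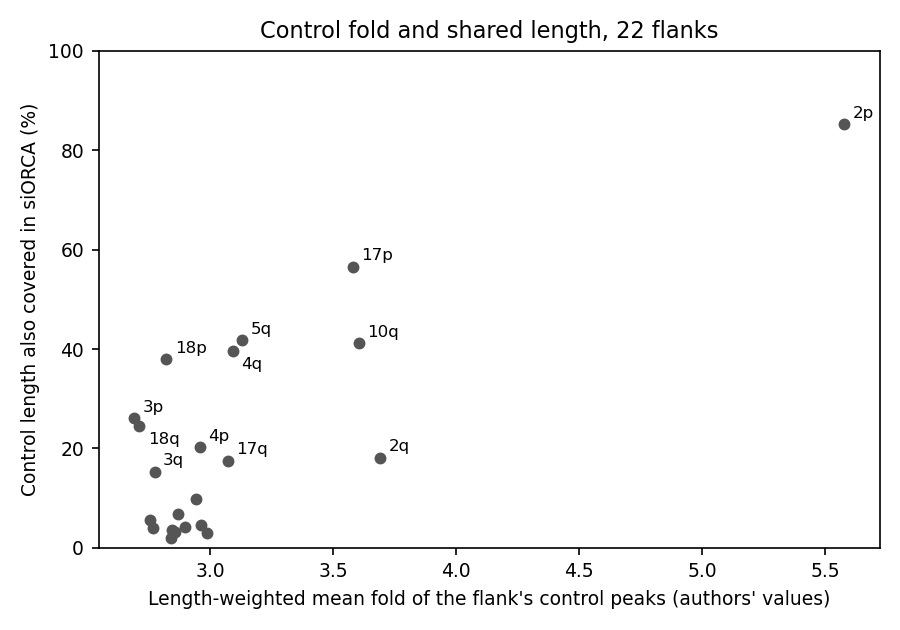
Percent of the control length also covered in siORCA against the length-weighted mean fold of the control peaks, 1 point per flank, folds as given by the authors' peak caller. Flank 2p stands alone at a fold of 5.58 with 85.3% shared, and at folds of 2.69 to 2.99 the flanks range from 1.93 to 38.0%.

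The strongest peaks of at least 1 kb in the flanks were covered in both lists. In the control they lay on chromosome 2, in flank 2q at chr2:94831032-94865166 with a fold of 10.1, and in flank 2p at chr2:89837143-89866850 with 9.87 and at chr2:92264835-92299073 with 9.40. The last of these ends within 1 kb of the array edge. Peaks of siORCA covered from 94.4 to 97.4% of them, with highest folds from 5.20 to 7.77. In siORCA the strongest lay in flank 10q, at chr10:42705390-42708450 with a fold of 14.0, chr10:42675433-42678499 with 13.1 and chr10:42787382-42788586 with 11.8, about 1 Mb from the array. Control peaks covered from 98.7 to 99.8% of them, with highest folds from 5.60 to 6.44. The strongest control peaks were therefore not those of siORCA, while each was a region with peaks in both lists. The highest siORCA fold in the flanks, 20.1, belonged to a peak of flank 10q under 1 kb wide, which the width limit leaves out.

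The sources used here give no read depth, and a region without siORCA peaks was not shown to lack the mark. The lowest −log10 q of a flank peak was 1.01 in both lists, and the lowest fold 1.85 in the control and 2.13 in siORCA.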

How the data were processed

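H3K27me3 ChIP was measured in 1 control and 1 siORCA library of U2OS cells. Fixation was with 1% formaldehyde for 10 min and reads were single-end of 101 cycles, per the labels' protocols. Per the submitters' processing notes, bcl2fastq, Trimmomatic, Bowtie2 and SAMtools were used with T2T-CHM13. Versions, the peak caller, its background and the treatment of duplicate and multiply aligned reads are given nowhere in the sources used here. The deposited broadPeak lists, 1 per library, hold a fold enrichment (a ratio), a −log10 p-value, a −log10 q-value and a score per peak. The authors' score was not used. Folds are the authors' values. They describe and rank peaks within a list, and medians of both lists are given side by side. For the strongest peaks, the highest fold of the overlapping peaks in the other list is also given. In 1 alternative the same fold limit is set in both lists, whose folds may not be on 1 scale.

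Lists were merged and clipped to the 22 windows, and covered and shared bases were counted in Python 3.11.15 with pandas 2.3.3. Wilson intervals came from statsmodels 0.14.6. The overlap code was tested on simulated lists, where 0 of 1200 values differed from a base-by-base count. The background is the set of 962 windows of 3 Mb tiled from the start of each chromosome, apart from those touching flanks or arrays. The last peak end stood for the chromosome end on 22 autosomes and the X chromosome. A length-weighted fold weights each peak by its length within the window.

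The windows and measures were chosen with earlier results of these data known. The regions named are all 22 flanks, the 5 longest stretches of each list in the flanks and the 5 longest without the other list, the 3 strongest peaks of at least 1 kb, and the 5 bins of 100 kb that differ most in each direction. The limits of 20 and 5% on bins, of 50 and 2% on the nearest 0.5 Mb, of 20 kb on stretches, and the fold and width classes were set after the values had been seen. Genes and sequences were not tied to peaks, because the gene and sequence tables used here are on GRCh38. No test was made. Alternatives were limits on q and fold, equal numbers of peaks in the lists (those with the highest −log10 p), narrower flanks, no long peaks, whole peaks, and each chromosome left out.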

Additional observations from a re-analysis of the deposited data

How the results depend on the processing

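No paired analysis was possible because each condition had 1 library, and no library could be left out. Leaving out each chromosome in turn, the ratio of siORCA to control ranged from 0.274 to 0.376 for covered length and from 0.474 to 0.582 for peaks. The shared part ranged from 22.8 to 31.8% of control and from 82.4 to 86.3% of siORCA length, and 17 or 18 of 20 flanks were at or under 0.5. The flanks' part of a whole list, 5.77% in the control and 4.30% in siORCA, ranged from 4.63 to 5.56% and from 3.12 to 4.26%. This part can only fall, because flanks leave the sum while the whole list stays the divisor. Leaving out peaks with a fold under 3 changed the ratio to 2.45 for peaks, a turned direction, and to 0.655 for covered length. More control than siORCA peaks fall under this limit. It gave shared parts of 41.0% of control and 62.6% of siORCA length, a control part in the flanks of 6.02%, and an array ratio of 6.54. A limit at each list's own median fold (chosen after seeing the data) kept all 22 flanks lower, with a ratio of 0.337, an array ratio of 2.08, and flank parts of 6.05 and 4.70%. Equal numbers of peaks brought the ratio of peaks to 0.941, where covered length stayed at 0.385. The shared parts were then 31.4 and 81.6%, and the control part 6.10%. A −log10 q of at least 2 gave 89.1% of siORCA length shared and flank parts of 6.51 and 5.16%. The nearest 1.5 Mb gave shared parts of 30.3 and 85.9% and flank parts of 4.37 and 3.45%, in flanks of smaller width. Without peaks of 50 kb or longer the shared parts were 23.7 and 71.3%, and the control part 5.46%. Counted as peaks, 26.9% of control and 76.5% of siORCA peaks were overlapped by 1 bp, and 13.9 and 67.7% over 50% of their length. Whole peaks left the 6 values recomputed with them within the limits set for them. Joining over 1 or 10 kb gave ratios of stretches of 0.320 and 0.345, against 0.405, but moved the numbers: 103 and 177 control stretches, 38 and 117 of them under 5% covered by siORCA, and siORCA stretches in 8 and 17 flanks. Apart from the lower flank parts with fewer or narrower flanks, which follow from the way they are computed, the cause of these changes was not tested.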

Other observations

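Coverage was higher in siORCA than in the control in 42 of the 660 bins of 100 kb in the flanks, 12 of them in flank 2p, and in 2 bins by 10 kb or more. These are 6.36 and 0.303% of the flank bins, below the 11.2 and 0.559% of 29509 bins in the rest of the series. The 2 bins lay in flank 2p from 89.9 to 90.0 Mb, with 13.8 kb in the control and 38.7 kb in siORCA, and in flank 17p from 23 to 23.1 Mb, with 2.38 kb and 16.7 kb. The next 3 lay in flank 2p from 90.0 to 90.1 Mb (5.77 and 15.1 kb), in flank 5q from 50.2 to 50.3 Mb (3.87 and 11.9 kb) and in flank 5p from 46.9 to 47.0 Mb (11.3 and 19.3 kb), the last one at the array edge. The array of chromosome 5 had the highest ratio of the 11 arrays, 19.9% being under control peaks and 35.6% under siORCA peaks. Across the 11 arrays the ratio ran from 0.937 on chromosome 3 to 1.79 on chromosome 5.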
